A study of Mus musculus with 6 samples.

Results

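The genes described here are the Jun, Fos and Batf family members of the AP-1 transcription factors: Jun, Junb, Jund, Fos, Fosb, Fosl1, Fosl2, Batf and Batf3. These 9 genes were taken by name from 19938 genes measured on 6 arrays, and each was read by the 1 probe set that the platform annotation assigns to it alone. The arrays held total RNA of mouse pre-B cells (strain 129P2/OlaHsd) transformed by BCR-ABL1, the fusion kinase of Philadelphia chromosome-positive acute lymphoblastic leukaemia. All samples had the genotype Ptpn6 +/fl, with 1 floxed and 1 unfloxed allele of the gene for the tyrosine phosphatase SHP-1, were puromycin resistant, and were taken after 2 days in 0.5 micromolar 4OH-Tamoxifen. The 3 arrays labelled ERT2 came from cells transduced with PMIP-ERT2, which carries the modified oestrogen receptor domain without a recombinase, and the 3 labelled CRE-ERT2 from cells transduced with PMIP-CRE-ERT2, in which tamoxifen activates Cre. Whether the cells of a group were separate cultures or 1 clone is not stated in the labels, so p-values cover the variation among these arrays alone, and that variation may be technical.

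AP-1 is a dimer of leucine zipper proteins that binds a short palindromic DNA site. Jun proteins can pair with one another or with Fos proteins, Fos proteins need a Jun partner, and Batf and Batf3 pair with Jun proteins and, together with the interferon regulatory factors IRF4 and IRF8, bind composite sites in lymphocytes. Mitogen-activated kinases (JNK, p38 and ERK) phosphorylate several of these proteins and switch on some of their genes within minutes of a signal. The Jun gene is itself a target of Jun dimers. Below, a level is a log2 expression value of 1 probe set on 1 array, and a change is the mean of the CRE-ERT2 arrays minus that of the ERT2 arrays on the log2 scale. Levels of different probe sets are not compared, since probes differ in brightness.

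The elements by which Jun dimers are known to act on the Jun gene lie in its promoter, so that promoter is shown beside the one of Fos, its classical partner. Both are from RefSeq on GRCm38.p6, from 250 bases before to 50 after the annotated start, read 5′ to 3′ on the strand of the gene: Jun is chr4:95052173-95052472 on the minus strand and Fos is chr12:85473640-85473939 on the plus strand. Capitals mark matches to the AP-1 site TGANTCA, the cAMP response element TGACGTCA, its core TGACG, and the proximal (TGACATCA) and distal (TTACCTCA) elements of the Jun promoter, searched on both strands, and TGACG lies within TGACGTCA.
Jun: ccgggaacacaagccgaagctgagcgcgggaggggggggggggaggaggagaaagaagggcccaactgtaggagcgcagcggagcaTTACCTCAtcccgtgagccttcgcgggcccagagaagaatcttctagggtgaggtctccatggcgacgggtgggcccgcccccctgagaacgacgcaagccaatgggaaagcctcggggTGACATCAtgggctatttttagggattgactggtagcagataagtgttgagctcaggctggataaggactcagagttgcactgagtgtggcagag
Fos: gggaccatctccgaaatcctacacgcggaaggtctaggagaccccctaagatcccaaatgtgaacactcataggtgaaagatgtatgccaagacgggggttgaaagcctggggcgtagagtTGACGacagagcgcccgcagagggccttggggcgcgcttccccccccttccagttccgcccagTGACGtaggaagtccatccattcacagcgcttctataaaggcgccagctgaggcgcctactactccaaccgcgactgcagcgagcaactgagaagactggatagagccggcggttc
The Jun window held the distal element from 164 bases and the proximal element from 45 bases before the start. Among all 32851 promoter windows of that length, 3.62% held TGACATCA and 0.889% held TTACCTCA. The Fos window held TGACG from 129 and from 66 bases before the start, which also occurs in 20.8% of all windows. RefSeq promoters were matched for 8 of the 9 genes. TGACG was also found in the windows of Junb, Fosb and Batf, so in 4 of 8. TGANTCA (7.81% of all windows), TGACGTCA (1.79%) and the CArG box (1.63%), the core of the serum response element, were in 0 of the 8. The windows reach only 250 bases before the start, so an element farther upstream, in Fos or any other gene, could not be found. The Jund window stands apart in composition, with 46.7% GC and 3 CG dinucleotides against a median of 52.7% GC over all windows, and whether it is the main promoter of Jund is not known here. Without it, TGACG was in 4 of 7 and the last 3 motifs in 0 of 7. These matches describe the letters of each window and are not evidence of binding.

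The study's question was what Ptpn6 does in these cells. Ptpn6 itself did not separate the groups, at 11.34 ± 0.08 in the ERT2 arrays and 11.27 ± 0.08 in the CRE-ERT2 arrays (SD, n = 3 each; limma adjusted p = 0.759). Its probe set cannot be placed relative to the floxed part here, so it neither supports nor contradicts the labels, and every direction below runs from the arrays labelled ERT2 to those labelled CRE-ERT2. Array medians lay between 7.90 and 7.98, and precision is limited by there being 3 arrays a group. Of all genes, 914 (4.58%) differed at a limma adjusted p under 0.05, the threshold used throughout, and 16.4% had an unadjusted p under 0.05; leaving out 1 array gave 560 without ERT2 replicate 1, 574 without CRE-ERT2 replicate 2 and 453 without CRE-ERT2 replicate 3. Of 14 pre-B cell markers measured, limma called Dntt (0.48) and Bst1 (0.31) higher and Rag2 (-0.53) and Il7r (-0.43) lower. This is 28.6%, against 4.58% of all genes. Among the 10 not called, the transcription factor gene Pax5 stood at 12.57 in both groups and the surrogate light chain gene Igll1 at 14.40 and 14.46. Blnk changed by 0.21 and Cd79a by 0.18. The CRE-ERT2 arrays lay wholly above the ERT2 arrays for 7 of the 14 (50%, against 6.92% of all genes) and below for 2 (14.3%, against 15.5%). Limma called 0 of 10 T and NK cell, 0 of 11 myeloid and 0 of 8 fibroblast markers, against 4.58% of all genes. At an unadjusted p under 0.05 there were 0, 1 and 0, against 16.4% of all genes. With so few genes these counts do not set the 3 lists apart from the rest. Of 7 mature B and plasma cell markers 1 was called (14.3%, against 4.58% of all genes), Sdc1, which fell (-0.44). Among these 7, 3 had an unadjusted limma p under 0.05 (42.9%, against 16.4% of all genes). Besides Sdc1 they were Jchain (0.34), with CRE-ERT2 wholly above, and Cr2 (-0.28), with CRE-ERT2 wholly below. Neither Jchain nor Cr2 passed the threshold. With 7 genes these counts are a description. The mean log2 level over the T and NK cell markers was 7.030 to 7.117 on the ERT2 arrays and 6.994 to 7.028 on the CRE-ERT2 arrays. These ranges were separate by a narrow margin. Of the 10 changes 8 were negative, with a median of -0.08 against -0.03 over all genes. Over the myeloid markers the mean log2 level was 6.93 to 7.03 on the ERT2 arrays and 6.91 to 7.02 on the CRE-ERT2 arrays. For the mature B and plasma cell markers it was 7.99 to 8.10 and 7.94 to 8.07, and for the fibroblast markers 7.34 to 7.62 and 7.38 to 7.59. Detection calls were not used here, so whether a dim gene was expressed at all cannot be said.

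Jun was higher in the arrays labelled CRE-ERT2 and was the only one of the 9 genes to pass the threshold as the values were deposited. The other 8 did not pass: Jund separated the groups without passing, and for Junb, the Fos genes and the Batf genes the groups overlapped. The 1 call among 9 genes compares with 4.58% of all genes called, 2.30% called higher and 2.28% called lower. An unadjusted p under 0.05 was found for 2 of the 9 (22.2%), against 16.4% of all genes. The groups did not overlap, with CRE-ERT2 above, for 2 of the 9 genes, Jun and Jund, and for 6.92% of all genes. Of the 9 changes 6 were positive and 3 negative, with a median of 0.04 against -0.03 over all genes. These counts describe 9 named genes and do not set them apart from others.

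**Figure D1:**
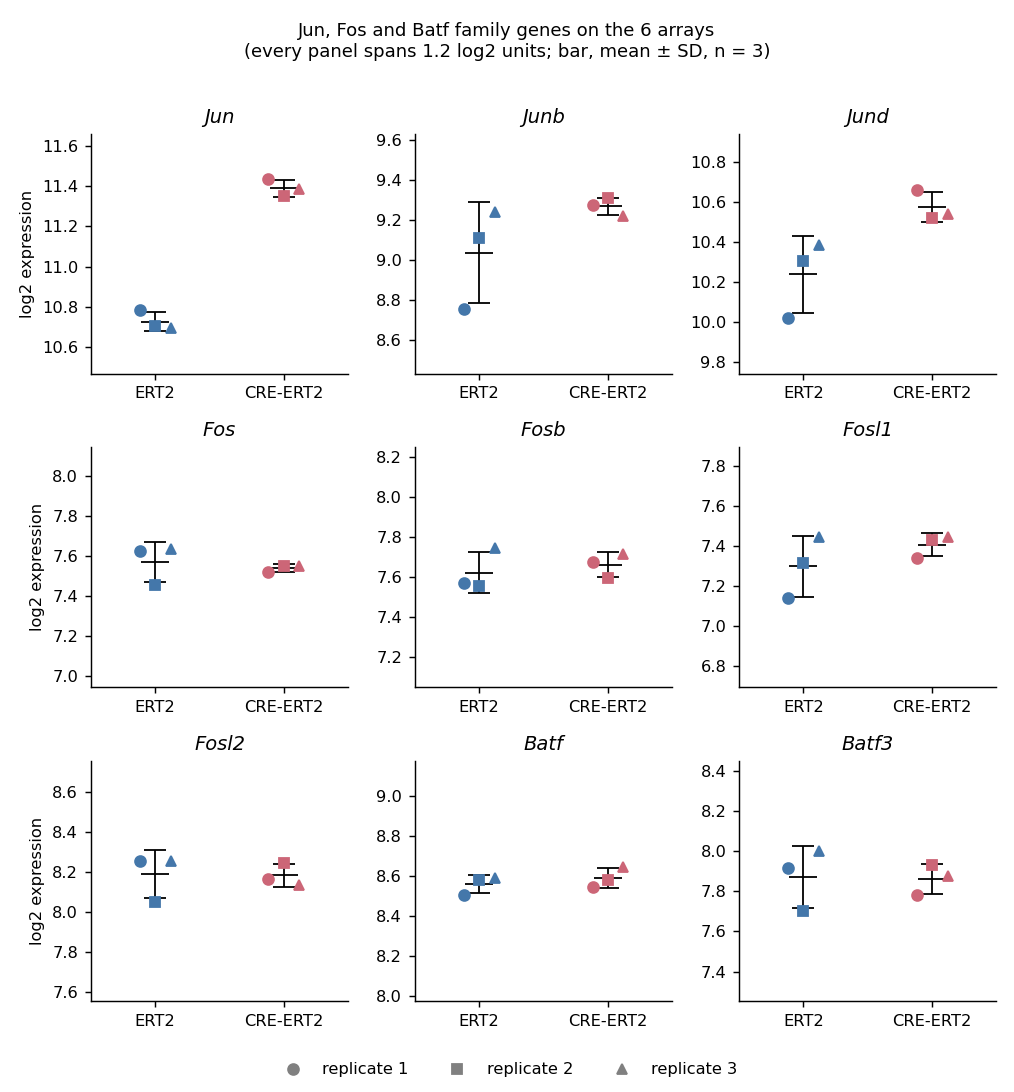
Log2 expression of each of the 9 genes on the 6 arrays, 1 point per array, with the mean and SD of each group (n = 3); each panel has its own axis spanning the same range. The Jun panel shows the CRE-ERT2 arrays at 11.35 to 11.43 and the ERT2 arrays at 10.69 to 10.78, and ERT2 replicate 1 is the lowest point for Junb, Jund and Fosl1.

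Among the Jun genes, Jun encodes c-Jun, the strongest activator of the family and the main substrate of JNK. Its probe set, 10514466, read 10.78, 10.70 and 10.69 on ERT2 replicates 1 to 3 and 11.43, 11.35 and 11.39 on CRE-ERT2 replicates 1 to 3. Every CRE-ERT2 array lay above every ERT2 array, and the spread inside either group was small beside the gap. The mean rose from 10.73 ± 0.05 to 11.39 ± 0.04 (SD, n = 3 each), a change of 0.67 with a standard error of 0.07. This is 1.59-fold with a 95% confidence interval of 1.43 to 1.77, and the limma adjusted p was 0.000101, the 94th smallest p among all genes. An exact two-sided permutation test of the 6 values gave p = 0.1, the smallest that 3 arrays against 3 can give. The adjusted p stayed between 1.04e-06 and 0.00918 under the 14 alternative settings, with changes of 0.64 to 0.72.

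Jund encodes a Jun protein that is present in most resting cells and is linked to restraint of proliferation. It read 10.02, 10.31 and 10.39 on the ERT2 arrays and 10.66, 10.52 and 10.54 on the CRE-ERT2 arrays. The groups did not overlap, but the highest ERT2 array lay close to the lowest CRE-ERT2 array, and the ERT2 arrays were spread by more than the CRE-ERT2 arrays. The means were 10.24 ± 0.19 and 10.57 ± 0.08 (SD, n = 3 each), which is a change of 0.34 with a standard error of 0.10, a ratio of 1.26 (95% confidence interval 1.09 to 1.46) and a limma adjusted p of 0.0696. Jund therefore missed the threshold as deposited. It passed without ERT2 replicate 3 (adjusted p = 0.0271), after centring each array on its median (0.0474), with the dimmest genes left out (0.0400) and with a trended, robust variance (0.0214). Without ERT2 replicate 1, its lowest array, the change was 0.23 (adjusted p = 0.208).

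Junb encodes a Jun protein that activates transcription less than c-Jun at single AP-1 sites and can oppose it. The ERT2 arrays gave 8.76, 9.11 and 9.24 and the CRE-ERT2 arrays 9.27, 9.31 and 9.22. ERT2 replicate 1 was well below the other 5 arrays, and the groups overlapped because ERT2 replicate 3 lay above CRE-ERT2 replicate 3. The change was 0.23 with a standard error of 0.11, a ratio of 1.17 (0.999 to 1.38), and a limma adjusted p of 0.309. Without ERT2 replicate 1 the change was 0.09 (adjusted p = 0.714), so most of the difference between the means rested on that array.

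**Figure D2:**
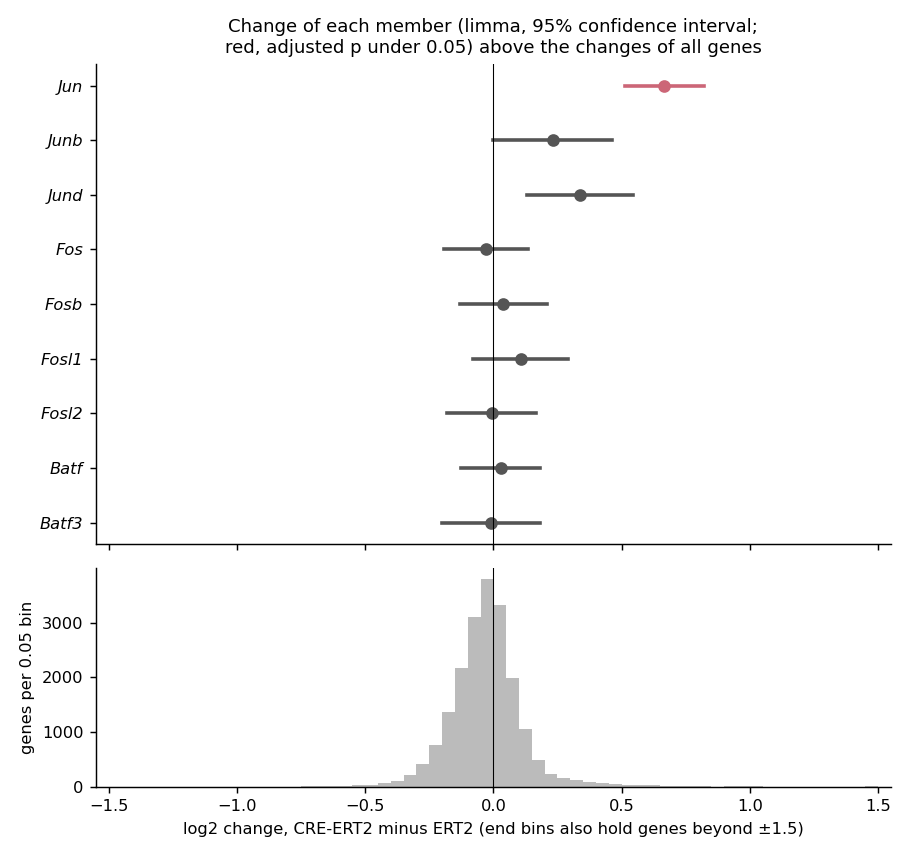
Upper panel, log2 change of each of the 9 genes (point) with its 95% confidence interval from limma (line), red where the adjusted p was under 0.05; lower panel, number of genes in each 0.05 bin of log2 change over all 19938 genes. Jun at 0.67 lies in the sparse right tail of all genes, Jund (0.34) and Junb (0.23) lie on the same side with wider intervals, and the Fos and Batf genes lie near 0.

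The 3 Jun genes were also compared inside each array, as the difference of their log2 values, which cancels any shift common to an array. The Jun minus Junb difference was 1.69 ± 0.30 in the ERT2 arrays and 2.12 ± 0.07 in the CRE-ERT2 arrays (SD, n = 3 each), so Jun changed by 0.44 more than Junb. On single arrays it was 2.02, 1.59 and 1.45 in ERT2 and 2.16, 2.04 and 2.17 in CRE-ERT2. The groups did not overlap, by a narrow margin on the side of ERT2 replicate 1. Jun minus Jund was 0.76, 0.40 and 0.31 in the ERT2 arrays and 0.77, 0.83 and 0.85 in the CRE-ERT2 arrays, an excess of 0.33 for Jun. ERT2 replicate 1 again came nearest to the other group. Both pairs had an exact two-sided permutation p of 0.1, the smallest possible, and 0.5 after Benjamini-Hochberg adjustment over the 10 pairs of relatives compared. With this floor the test could not pass either pair, so the sizes and the separation of the arrays are the result. Junb minus Jund overlapped between the groups, with a difference of -0.10 (exact p = 0.2).

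**Figure D3:**
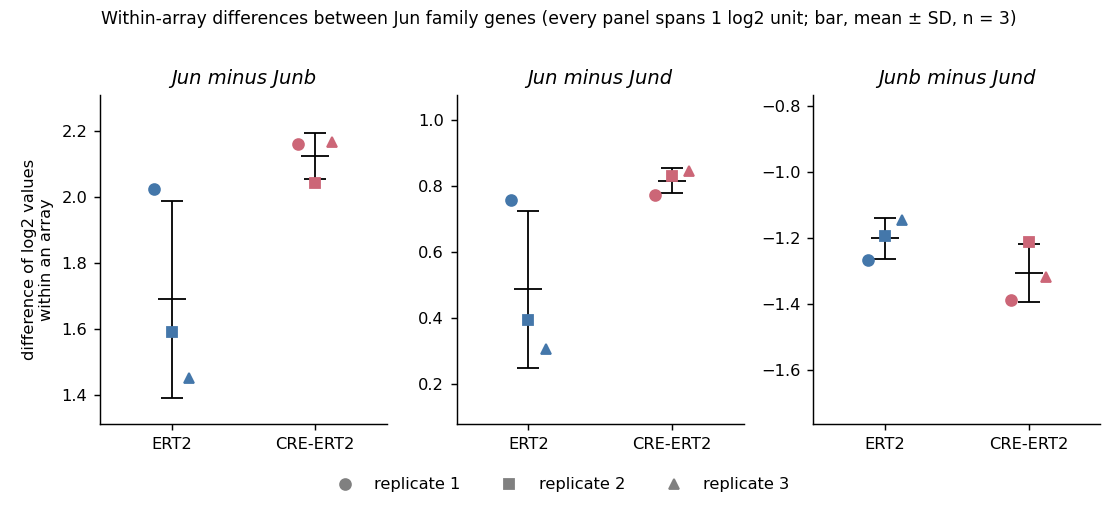
Difference of log2 values between 2 Jun family genes on the same array, 1 point per array, with the mean and SD of each group (n = 3). For Jun minus Junb and Jun minus Jund the CRE-ERT2 points lie above the ERT2 points, with ERT2 replicate 1 at 2.02 and 0.76 close to them, and for Junb minus Jund the groups overlap.

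The Fos genes did not pass the test in either direction. Fos encodes c-Fos, the short-lived partner of c-Jun that growth signals induce within minutes. Its levels were 7.62, 7.45 and 7.63 on the ERT2 arrays and 7.52, 7.55 and 7.55 on the CRE-ERT2 arrays. The CRE-ERT2 arrays lay inside the range of the ERT2 arrays, and the change was -0.03 (95% confidence interval -0.19 to 0.13; limma adjusted p = 0.927). Fosb encodes a related protein whose shorter form accumulates after repeated stimulation. It read 7.57, 7.55 and 7.74 in ERT2 and 7.68, 7.59 and 7.71 in CRE-ERT2, with a change of 0.04 (-0.13 to 0.21; adjusted p = 0.900). The groups overlapped over almost their whole range.

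Fosl1 and Fosl2 encode Fra-1 and Fra-2, which lack the activation domain of c-Fos and last longer in the cell. Fosl1 read 7.14, 7.32 and 7.45 on the ERT2 arrays and 7.34, 7.43 and 7.45 on the CRE-ERT2 arrays. Its change was 0.11 (-0.08 to 0.29; limma adjusted p = 0.638), and the groups overlapped, with ERT2 replicate 1 the lowest. Without that array the change was 0.026 (adjusted p = 0.953), and with each other array left out it ran up to 0.178. Fosl2 read 8.26, 8.05 and 8.26 on the ERT2 arrays and 8.17, 8.25 and 8.14 on the CRE-ERT2 arrays. All 3 CRE-ERT2 arrays lay inside the ERT2 range, and the change was -0.0055 (-0.18 to 0.17; adjusted p = 0.988). The intervals of the 4 Fos genes together run from -0.19 to 0.29 and so leave out a change as large as the 0.67 of Jun, although arrays understate the change of a gene close to background. For the 6 pairs among the Fos genes the differences in change were -0.14 to 0.11, with exact permutation p-values of 0.2 to 0.6. As this p cannot go below 0.1, the test could not pass any pair.

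Batf and Batf3 encode small leucine zipper proteins with no activation domain of their own, known for their roles in lymphocyte and dendritic cell differentiation. Batf read 8.50, 8.58 and 8.59 on the ERT2 arrays and 8.54, 8.58 and 8.64 on the CRE-ERT2 arrays. The change was 0.03 (95% confidence interval -0.13 to 0.18; limma adjusted p = 0.925), and the groups overlapped. Batf3 read 7.92, 7.70 and 8.0004 on the ERT2 arrays and 7.78, 7.93 and 7.88 on the CRE-ERT2 arrays. Its CRE-ERT2 arrays lay inside the ERT2 range, with a change of -0.0090 (-0.20 to 0.18; adjusted p = 0.983). The difference in change within the pair was 0.04 (exact permutation p = 0.8). The signs of the changes of Fos, Fosl2 and Batf3 turned under some settings, so no direction is given for them.

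Fos and Batf lie on chromosome 12 with 1 protein-coding gene between them, Jdp2, which encodes a repressor that pairs with Jun proteins, and Junb and Jund both lie on chromosome 8. Jdp2 changed by -0.02 (limma adjusted p = 0.968), like its neighbours not past the threshold. Jun lies on chromosome 4, away from the other 8.

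The genes whose profile over the 6 arrays was nearest to that of Jun were Galnt14, Il2ra and Nav2. Nearness was the root mean square difference of log2 profiles, each centred on its own mean, among 1921 genes with an SD at least 0.5 times that of Jun, and it was 0.03, 0.04 and 0.04. Galnt14, which encodes an enzyme of mucin-type glycosylation, rose by 0.65 from 10.22 ± 0.09 to 10.86 ± 0.05. Il2ra, the alpha chain of the interleukin 2 receptor and a gene induced by lymphocyte activation, rose by 0.63 from 11.56 ± 0.04 to 12.19 ± 0.06. Nav2, a neuron navigator gene, rose by 0.59 from 8.43 ± 0.06 to 9.01 ± 0.01 (SD, n = 3 each; limma adjusted p = 0.000231, 0.000174 and 0.000252). With 2 groups of 3 arrays this likeness mainly says that the genes changed by a similar amount.

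**Figure D4:**
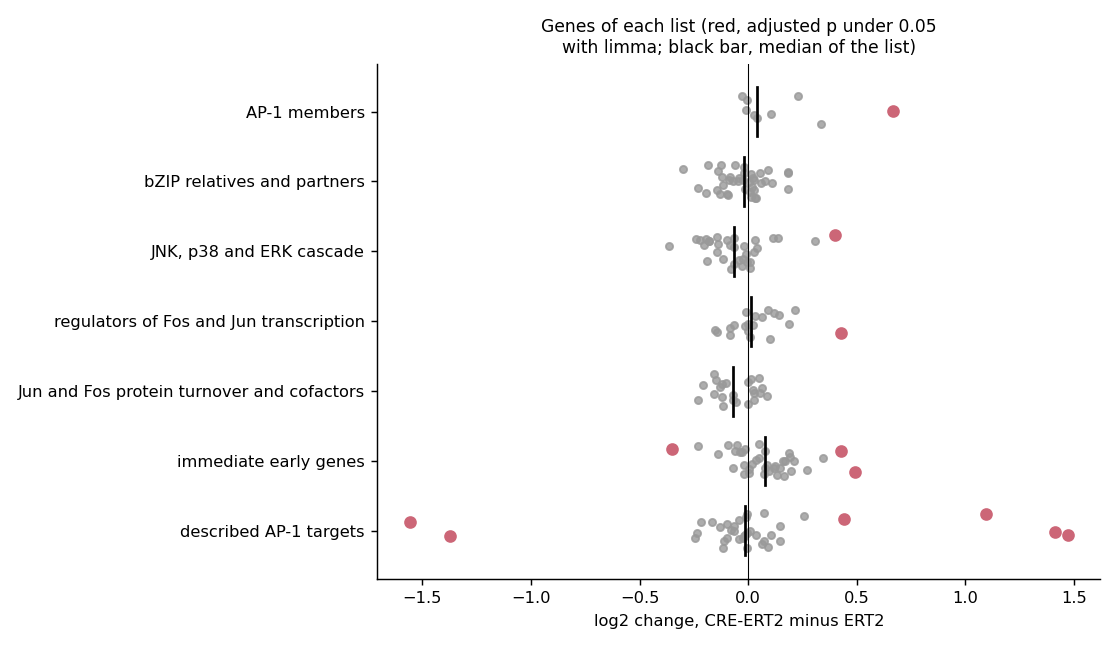
Log2 change of each measured gene in the list of the 9 genes and in 6 lists of related genes, 1 point per gene placed with random vertical scatter, red where the limma adjusted p was under 0.05, with the median of each list as a black bar. Called genes are few in every list, and the widest changes, from -1.56 to 1.47, are in the list of described AP-1 targets.

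Of 40 other leucine zipper factors and partners measured, limma called 0 in either direction, against 4.58% of all genes. An unadjusted p under 0.05 was found for 7 (17.5%, against 16.4% of all genes), and the median change was -0.02. The CRE-ERT2 arrays lay wholly above the ERT2 arrays for 3 (7.5%, against 6.92% of all genes) and wholly below for 9 (22.5%, against 15.5%). At this number of genes the counts do not set the list apart from the rest. The smallest p belonged to Cebpg, which encodes a C/EBP protein that dimerises with ATF4 (-0.30; adjusted p = 0.0577), and to Atf4, the factor of the integrated stress response (-0.23; 0.138). Cebpg passed with the dimmest genes left out (0.0306), with a trended, robust variance (0.0185) and without ERT2 replicate 3 (0.0340). Nfe2l2 (0.18; 0.208) passed with a trended, robust variance (0.0331). The IRF partners of Batf did not pass either, with Irf4 at 0.05 (adjusted p = 0.821) and Irf8 at -0.13 (0.442). Jdp2, Nfe2l2, Irf4 and Irf8 lie outside the naming rule and were named after their values were seen. The same holds, below, for Map2k6, Mapk14, Mapkapk2, Mapk8, Mapk9, Csrnp1, Zfp36l1, Zfp36l2, Vegfa, Odc1, Ccnd1 and Bcl2l11. The cell type markers named above had no naming rule and were likewise named with their values known.

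Of 33 kinase and RAS genes of the JNK, p38 and ERK cascades, 1 rose and 0 fell (3.03% called, against 4.58% of all genes) and 32 did not pass. Of the 33 changes 9 were positive and 24 negative, with a median of -0.06 against -0.03 over all genes. An unadjusted p under 0.05 was found for 9 (27.3%, against 16.4% of all genes). The CRE-ERT2 arrays lay wholly below the ERT2 arrays for 9 (27.3%, against 15.5% of all genes) and wholly above for 3 (9.09%, against 6.92%). The gene that rose was Map3k8, which encodes the kinase TPL2 that activates ERK and JNK signalling in lymphocytes and macrophages. It read 10.20, 10.22 and 10.13 on the ERT2 arrays and 10.62, 10.49 and 10.63 on the CRE-ERT2 arrays, and the 2 groups were well apart. Its change was 0.40 with a standard error of 0.07 (limma adjusted p = 0.00709), and the call was lost without CRE-ERT2 replicate 3 (0.0561) and when all probe sets were tested (0.0673). Mapk11, a p38 kinase gene, followed at 0.31 (0.0545), and passed without ERT2 replicate 3 (0.0291), with arrays centred (0.0412), with the dimmest genes left out (0.0290) and with a trended, robust variance (0.0301). Among the members with negative changes, Map2k6, which encodes the p38-activating kinase MKK6, stood at -0.36 (adjusted p = 0.0573) and Mapk14, which encodes p38 alpha, at -0.24 (0.0860). With a trended, robust variance 2 members were called higher and 3 lower, the latter being Map2k6 (0.0246), Mapk14 (0.0148) and Mapkapk2, which encodes a kinase activated by p38 (-0.22; 0.0272). With the dimmest genes left out 2 were called higher and 2 lower, again Map2k6 (0.0329) and Mapk14 (0.0440). Map2k6 also passed with array weights (0.0291) and without CRE-ERT2 replicate 1 (0.00924). The JNK genes Mapk8 (-0.20; adjusted p = 0.196) and Mapk9 (-0.18; 0.280), whose products phosphorylate c-Jun, did not pass.

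Of 20 regulators of Fos and Jun transcription 1 rose and 0 fell, which leaves 19 that did not pass (5% called, against 4.58% of all genes). Their median change was 0.01, and 3 (15%, against 16.4% of all genes) had an unadjusted p under 0.05. Non-overlapping groups were found for 4 with CRE-ERT2 above (20%, against 6.92% of all genes) and 5 with CRE-ERT2 below (25%, against 15.5%). These counts were not tested. The riser was Mrtfb, which encodes a coactivator of the serum response factor SRF, and which read 11.50, 11.48 and 11.49 on the ERT2 arrays and 11.86, 11.90 and 11.99 on the CRE-ERT2 arrays. The groups were separate and the ERT2 arrays nearly equal, and the change was 0.43 (limma adjusted p = 0.00330). Its relative Mrtfa changed by 0.21 (0.163). Of 23 genes for the turnover and cofactors of Jun and Fos proteins limma called 0, against 4.58% of all genes, with a median change of -0.07. Non-overlapping groups were found for 0 with CRE-ERT2 above (against 6.92% of all genes) and 5 with CRE-ERT2 below (21.7%, against 15.5%). At an unadjusted p under 0.05 there were 2 (8.70%, against 16.4% of all genes), and the counts are too small to set the list apart. These 2 were the deubiquitinase gene Usp28 (-0.23; adjusted p = 0.154) and Apex1, whose product keeps Jun and Fos in a DNA-binding redox state (-0.21; 0.185). Apex1 passed with a trended, robust variance (0.0472).

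Of 38 immediate early genes, which like Fos are switched on by signals without new protein synthesis, 2 rose and 1 fell (7.89% called, against 4.58% of all genes) and 35 did not pass. Their median change was 0.08, and 11 (28.9%, against 16.4% of all genes) had an unadjusted p under 0.05. Gadd45b, a stress gene, rose by 0.49 (limma adjusted p = 0.00326) and Btg2, an antiproliferative gene that is also a p53 target, by 0.43 (0.00659). Myc, which drives growth, fell by 0.35 (0.0304), from 13.50, 13.43 and 13.28 on the ERT2 arrays to 13.15, 13.07 and 12.95 on the CRE-ERT2 arrays. The call of Myc was lost without ERT2 replicate 1 (0.129) or 2 (0.0605) and without CRE-ERT2 replicate 2 (0.0796) or 3 (0.176), and with all probe sets tested Gadd45b (0.0630), Btg2 (0.0805) and Myc (0.178) did not pass. Other members gained a call. Csrnp1 (0.27; 0.0536) passed after a further quantile normalization (0.0185) and with arrays centred (0.0491). It also passed with the dimmest genes left out (0.0267) and with a trended, robust variance (0.0186). Zfp36l2 (-0.23; 0.130) passed with a trended, robust variance (0.0195) and Zfp36l1 (0.34; 0.117) without ERT2 replicate 2 (0.0196). The CRE-ERT2 arrays lay wholly above the ERT2 arrays for 11 of the 38 genes (28.9%, against 6.92% of all genes) and wholly below for 3 (7.89%, against 15.5%). The list holds Myc, Gadd45b and other genes whose changes were known when it was written, and its counts are a description.

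Of 37 genes described as AP-1 targets in one tissue or another, 4 rose and 2 fell, 31 did not pass, and the median change was -0.01. The share called was 16.2% against 4.58% of all genes, and 27% against 16.4% had an unadjusted p under 0.05. Non-overlapping groups were found for 6 with CRE-ERT2 above (16.2%, against 6.92% of all genes) and 7 with CRE-ERT2 below (18.9%, against 15.5%). But the list was written with earlier results of these arrays known, among them those of Ctla4, Ahrr, Mt1 and Mt2. None of these shares is therefore evidence about AP-1. Ccnd1, which encodes cyclin D1 and is a long-known target of c-Jun, read 10.37, 10.34 and 10.29 on the ERT2 arrays and 11.47, 11.41 and 11.40 on the CRE-ERT2 arrays. The groups were far apart, and the rise was 1.09 with a standard error of 0.07, or 2.14-fold (limma adjusted p = 1.56e-06). Bcl2l11, which encodes the death-promoting protein BIM, rose by 0.44 (0.00326). Ctla4, an inhibitory receptor gene best known from T cells, rose by 1.47 (2.51e-07) and Ahrr, a repressor of the aryl hydrocarbon receptor, by 1.41 (2.19e-06). The metallothionein genes Mt2 (-1.56; adjusted p = 0.000547) and Mt1 (-1.37; 5.41e-06) fell, and their probe sets may in part read one another's transcripts. Mt2 did not pass with all probe sets tested (0.0660) or with a trended, robust variance (0.0506). Vegfa (-0.25; 0.0945) gained a call with the dimmest genes left out (0.0499) and with a trended, robust variance (0.0230). Odc1 (-0.23; 0.108) gained one with a trended, robust variance (0.0159). Whether any of these genes responds to Jun in these cells was not tested.

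**Figure D5:**
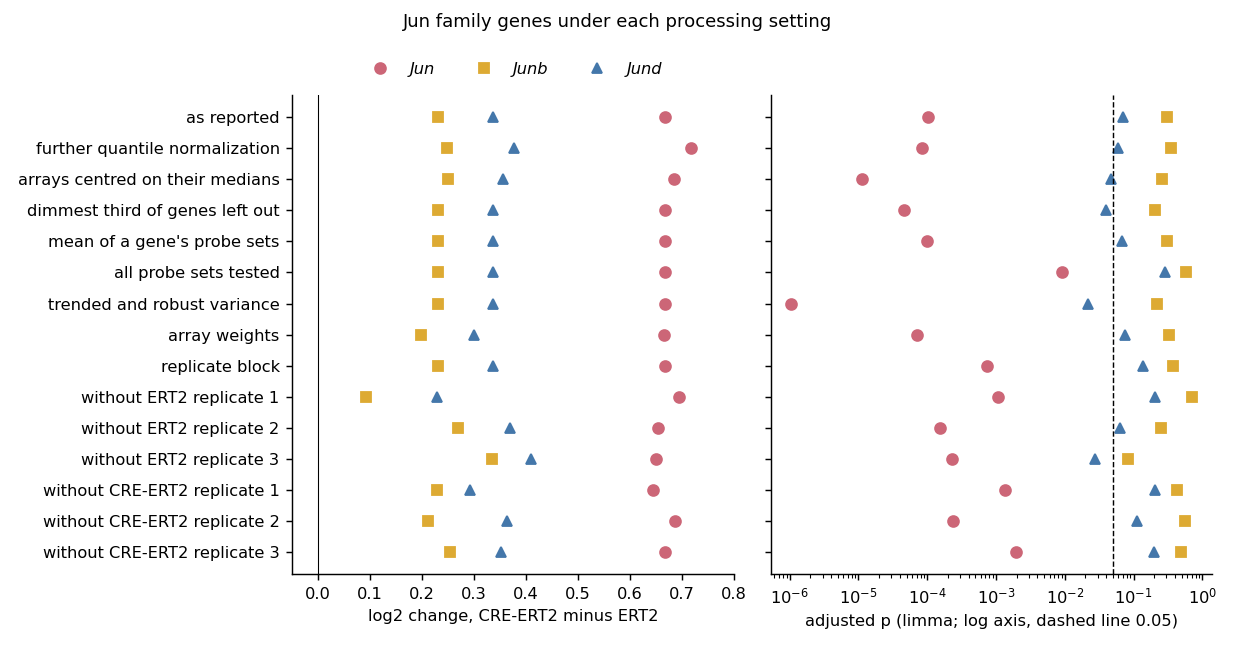
Log2 change (left) and limma adjusted p on a log axis (right; dashed line at 0.05) of Jun, Junb and Jund as reported and under each of the 14 alternative settings, 1 row per setting. Jun lies left of the line in every row, Junb lies right of it in every row, and Jund crosses it in 4 rows.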

How the data were processed

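The authors deposited log2 expression values for 35556 probe sets on 6 Affymetrix gene arrays (biotin label, per the labels' protocols). The submitters' processing notes name RMA and Partek 6.5 without role or order; the log2 scale was read from the range of values. Groups and replicate numbers come from the sample titles. The platform annotation gives 1 gene for 21789 probe sets, several for 1621 and none for 12146; the last 2 kinds were left out. Symbols were checked by Entrez identifier against GRCm38.p6 (21698 found, 0 changed). Of the probe sets of the 999 genes that have several, the brightest by its mean over the arrays was used. No dim genes were removed.

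The groups were compared in R 4.3.3 by limma 3.58.1, two-sided, with lmFit, eBayes and a model of the group alone, with p adjusted over 19938 genes by Benjamini-Hochberg. Confidence intervals are limma's. The fit was tested on simulated data. Lists hold 274 names, of which 250 were measured (current symbol or an unambiguous synonym). Of each list of related genes, up to 4 called members with the largest change were named, or up to 2 with the smallest p where fewer than 2 passed; for the called member the 3 genes with the nearest profile. The members and lists were chosen with earlier results of these data known. Relatives were compared within arrays by exact permutation. No pair of arrays was a duplicate (8 to 57 identical values; Pearson r 0.991 to 0.996 over probe sets).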

Additional observations from a re-analysis of the deposited data

How the results depend on the processing

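Of results that answer a comparison, 222 of 257 recomputed values kept direction and side of the threshold or, for counts, stayed within 1.5 times. These include the differences in change between relatives, whose permutation p cannot go below 0.1. Their side of the threshold was thus fixed, and only their sign could turn. The causes of the other shifts were not tested. Jun kept its direction and its side of the threshold under the 14 alternatives. Jund passed after centring each array on its median (0.35), with the dimmest genes left out and with a trended, robust variance (0.34 in both), which made 2 AP-1 genes called in each of these 3 settings; leaving out 1 array gave 0.23 to 0.41 for Jund and 1 to 2 genes called. The sign turned for Batf3 after a further quantile normalization (0.0022), centring (0.0098) and array weights (0.0058), and for Fosl2 after centring (0.013). With 1 array left out the change ran from -0.088 to 0.0017 for Fos, from 0.0049 to 0.0997 for Fosb, from 0.026 to 0.178 for Fosl1, from 0.0015 to 0.052 for Batf, from -0.074 to 0.029 for Fosl2 and from -0.094 to 0.055 for Batf3. For the differences in change it ran from -0.053 to 0.0023 for Fos minus Fosl2, from -0.015 to 0.11 for Fosb minus Fosl2, from -0.0025 to 0.19 for Fosl1 minus Fosl2 and from -0.011 to 0.13 for Batf minus Batf3. The count of all genes called was 298 with all probe sets tested, 1544 with a trended, robust variance and 453 to 979 with 1 array left out. The count of called genes over the 6 other lists was 11, and 17 with the dimmest genes left out, 6 with all probe sets tested, 21 with a trended, robust variance and 9 to 13 with 1 array left out. Fosl1 was among the dimmest genes and has no value under that setting. With the replicate number as a block 589 genes passed, Jun among them (adjusted p = 0.000749). Arrays with the same number did not deviate together (Pearson r over genes -0.11, -0.37 and -0.07, and 0 of 6 arrays correlated best with its own number). Across numbers, r was 0.45 for ERT2 2 with CRE-ERT2 1, 0.40 for ERT2 3 with CRE-ERT2 2 and 0.18 for ERT2 1 with CRE-ERT2 3. It was negative for the other pairs. The labels give no batch, and whether arrays of different number were handled together was not tested. The median change of all genes was -0.029 as deposited, -0.0095 after a further quantile normalization and -0.010 after centring. As array medians lay between 7.90 and 7.98, centring could move it only a little. The deposited changes of Fosl2 (-0.0055) and Batf3 (-0.0090), whose signs turned, were smaller in size than that deposited median change. Signal over background is unknown here, and 3 arrays a group limit the precision.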
